A study of Homo sapiens with 16 samples.

Results

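Chromosome 19 was described in A549, a long-established cell line from a human lung carcinoma, through all peaks that 4 deposited CUT&Tag lists place on it, taken by chromosome name alone. CUT&Tag maps an epitope on chromatin by directing a transposase to the bound antibody. Of 31050 peaks in the 4 lists, 2361 lay on chromosome 19. They comprised 377 of 4257 G4 peaks from cells given siRNA against BAZ2A (siBAZ2A), 416 of 4865 G4 peaks from cells given siRNA against BAZ2B (siBAZ2B), 336 of 3332 G4 peaks from cells given control siRNA (siControl), and 1232 of 18596 H3K4me3 peaks from siControl cells. All cells had been transfected with siRNA at 71 nM for 48 hours, and the G4 antibody was BG4, an antibody fragment that binds folded G-quadruplexes. Each group had 4 replicates, but each list is 1 merged list of peaks found in at least 2 replicates. There is therefore no value per replicate, differences between conditions could not be tested, and intervals below are 95% intervals for counting error over peaks alone. The sequencing depth of the libraries is unknown here, and how far each siRNA lowered its target was not analysed.

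A G-quadruplex (G4) forms where 4 runs of guanines on 1 DNA strand stack into a compact structure, and such structures are detected mostly in open, active promoters. H3K4me3 is the histone mark of active promoters. BAZ2A belongs to a nucleolar chromatin remodelling complex known for silencing copies of the ribosomal RNA genes. BAZ2B is its close relative and, like it, carries a bromodomain. Chromosome 19 is known for its high gene density, its high GC content and its large clusters of zinc-finger genes, whose protein products mostly act as transcriptional repressors. The chromosome was chosen by measured values, its high share of H3K4me3 peaks carrying BG4 and its low share of gained BG4 peaks, so both are given as descriptions without a test.

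An hg19 genome sequence was not used here, so the DNA under the peaks is not shown. To show what a potential G4 looks like in promoters of this chromosome, RefSeq promoters (GRCh38.p14, 250 bases before to 50 after the gene start) were searched on both strands for GGG or longer runs, 4 of them, separated by 1 to 7 of any base N. Whether any of the promoters below lies under a BG4 peak was not analysed, because the builds differ. Some of the shortest matches with 4 separate runs are shown, with the guanine runs in capitals, for 2 chromosome 19 genes of other families and for 2 genes with zinc-finger symbols.
YJEFN3: GGGtGGGcGGGaGGG
ACP7: GGGtGGGcGGGtGGG
ZNF878: GGGaGGGaGGGaGGG
ZNF534: GGGccGGGacaGGGcGGG
The first 3 stretches lie on the strand of their gene and the ZNF534 stretch on the other strand. The motif was present in 399 of 1185 protein-coding promoters of chromosome 19, 33.7% (31.0 to 36.4), against 4423 of 14658 promoters of all other chromosomes, 30.2% (29.4 to 30.9), a difference of 3.50 points (0.758 to 6.33). Within chromosome 19 the motif was less common at zinc-finger genes. It was present in 44 of 228 promoters with zinc-finger symbols (ZNF, ZFP, ZSCAN, ZKSCAN or ZIM), 19.3% (14.7 to 24.9), and in 355 of 957 other promoters, 37.1% (34.1 to 40.2). The share in zinc-finger promoters was close to that of the same symbols elsewhere, 49 of 249 or 19.7% (15.2 to 25.1). A match is a stretch of letters in the reference and not evidence of a folded G4 in these cells.

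Chromosome 19 was densely covered with promoter mark and G4 peaks. The median distance between neighbouring H3K4me3 peaks was 22.7 kb on chromosome 19 and 57.7 kb on all other chromosomes. BG4 peaks lay a median of 51.95 kb apart in siBAZ2A, 46.7 kb in siBAZ2B and 52.3 kb in siControl, against 202 kb, 169 kb and 205 kb on the other chromosomes. The BG4 peaks of chromosome 19 were also wider than those of the other chromosomes pooled, though not than those of chromosome 17 in every list: the median widths were 627 and 621 bp in siBAZ2A, 598 and 603 bp in siBAZ2B, and 660.5 and 627.5 bp in siControl on chromosomes 19 and 17. In siBAZ2A 63.4% of them exceeded the median width of the whole list (549 bp), against 48.5% elsewhere, a difference of 14.9 points (9.65 to 19.8). In siBAZ2B the shares were 55.5% and 49.4% (6.15 points, 1.12 to 11.1), and in siControl 63.1% and 48.3% (14.8 points, 9.19 to 20.1). H3K4me3 peaks went the other way: 45.9% of those on chromosome 19 were wider than the list median of 1125 bp, against 50.3% elsewhere, a difference of -4.40 points (-7.26 to -1.51). Chromosome 19 as a whole thus combined wider BG4 peaks with slightly narrower H3K4me3 peaks. The BG4 widths differed between its arms, which are split below. Long-arm medians were 667 bp in siBAZ2A, 646 bp in siBAZ2B and 680 bp in siControl. Short-arm medians were 525.5, 537 and 617 bp, beside 542, 559 and 589.5 bp on all other chromosomes. In both knockdown lists the short arm was thus not wider than the other chromosomes.

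Nearly all BG4 peaks of chromosome 19 sat on regions that carried H3K4me3 in siControl cells. An overlap with H3K4me3 was found for 364 of 377 siBAZ2A peaks, 96.6% (94.2 to 98.0), for 394 of 416 siBAZ2B peaks, 94.7% (92.1 to 96.5), and for 322 of 336 siControl peaks, 95.8% (93.1 to 97.5). The whole lists gave 92.9%, 90.4% and 89.9%. Relative to all other chromosomes the share was higher by 4.03 points in siBAZ2A (1.54 to 5.69), by 4.74 points in siBAZ2B (2.01 to 6.73) and by 6.58 points in siControl (3.68 to 8.61). Chromosome 17 was similar, with 94.6% in siBAZ2A, 95.35% in siBAZ2B and 95.1% in siControl. The median distance between the BG4 and H3K4me3 summits was 116 bp in siBAZ2A, 115.5 bp in siBAZ2B and 109 bp in siControl, beside 125, 129 and 123 bp on the other chromosomes. Most marked regions with a G4 peak held a single one. In siBAZ2A 352 H3K4me3 peaks carried 1 BG4 peak and 6 carried 2, in siBAZ2B 376 carried 1 and 9 carried 2, and in siControl 314 carried 1 and 4 carried 2.

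Of the 1232 H3K4me3 peaks of chromosome 19, 358 carried BG4 in siBAZ2A, 29.1% (26.6 to 31.7), 385 in siBAZ2B, 31.25% (28.7 to 33.9), and 318 in siControl, 25.8% (23.45 to 28.3). The whole H3K4me3 list gave 21.1%, 23.4% and 16.0%. Among chromosomes 1 to 22 and X, chromosome 19 ranked 1 in all 3 lists and chromosome 17 ranked 2, with 27.5%, 30.6% and 25.8%. At the widths of the chromosome 19 peaks, taken in quintiles, the other chromosomes would give 19.5% in siBAZ2A, 21.7% in siBAZ2B and 14.6% in siControl, which is 9.56, 9.58 and 11.2 points below chromosome 19. In all 3 lists BG4 was present at 260 H3K4me3 peaks (21.1%), and in none at 775 (62.9%). On all other chromosomes the shares were 11.2% and 71.1%. Peaks with BG4 in all lists had a median width of 1423 bp, peaks with BG4 in 1 or 2 lists 1224 bp, and peaks with none 892 bp, so regions with BG4 in all lists were the widest of the 3 classes. The same order was present on all other chromosomes, with 1490, 1352 and 1005 bp.

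The 1 Mb bins of chromosome 19 differed widely from each other. Of 60 bins, 57 held H3K4me3 peaks, with a median of 22 and a maximum of 54. The bins with the most were those at 1 to 2 Mb (54 peaks), 49 to 50 Mb (44), 18 to 19 Mb (38), 41 to 42 Mb (37) and 46 to 47 Mb (37). A crowded bin was not necessarily rich in G4. In the bin at 1 to 2 Mb, 12 of the 54 H3K4me3 peaks carried BG4 in siBAZ2A, 15 in siBAZ2B and 10 in siControl, while at 49 to 50 Mb 22, 21 and 20 of 44 did. Over the 32 bins with at least 20 H3K4me3 peaks, Spearman's rho between their number and the share carrying BG4 was -0.03 in siBAZ2A, 0.03 in siBAZ2B and 0.00 in siControl, given as a description of bins that share their libraries. Over the 45 bins with at least 10 H3K4me3 peaks it was 0.22, 0.22 and 0.24, so the relation depended on the minimum. In these 32 bins the share ranged from 9.38% to 56.25% in siBAZ2A with a median of 30.2%, from 7.41% to 59.4% in siBAZ2B with a median of 33.9%, and from 4.35% to 56.5% in siControl with a median of 26.1%.

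The bin of highest siControl share lay at 40 to 41 Mb, where 11 of 23 H3K4me3 peaks carried BG4 in siBAZ2A, 12 in siBAZ2B and 13 in siControl. It was followed by 48 to 49 Mb, with 13, 12 and 16 of 29, and by 36 to 37 Mb, with 18, 19 and 17 of 32. The next were 42 to 43 Mb, with 14 of 30 in each list, and 49 to 50 Mb. All 5 of these bins lie at 36 Mb or beyond. The lowest share among bins with at least 20 H3K4me3 peaks was at 19 to 20 Mb, with 5 of 23 in siBAZ2A, 3 in siBAZ2B and 1 in siControl. At 44 to 45 Mb, inside the G4-rich part, 3, 7 and 2 of 32 carried BG4, and at 2 to 3 Mb 6, 7 and 2 of 30 did. The remaining low bins were 12 to 13 Mb, with 4, 2 and 2 of 27, and 58 to 59 Mb, with 5, 5 and 3 of 37. The poor bins thus lay in several parts of the chromosome. Beside that at 44 to 45 Mb were 43 to 44 Mb, with 1 of 4 in each list, and 45 to 46 Mb, with 12, 13 and 13 of 33.

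**Figure D1:**
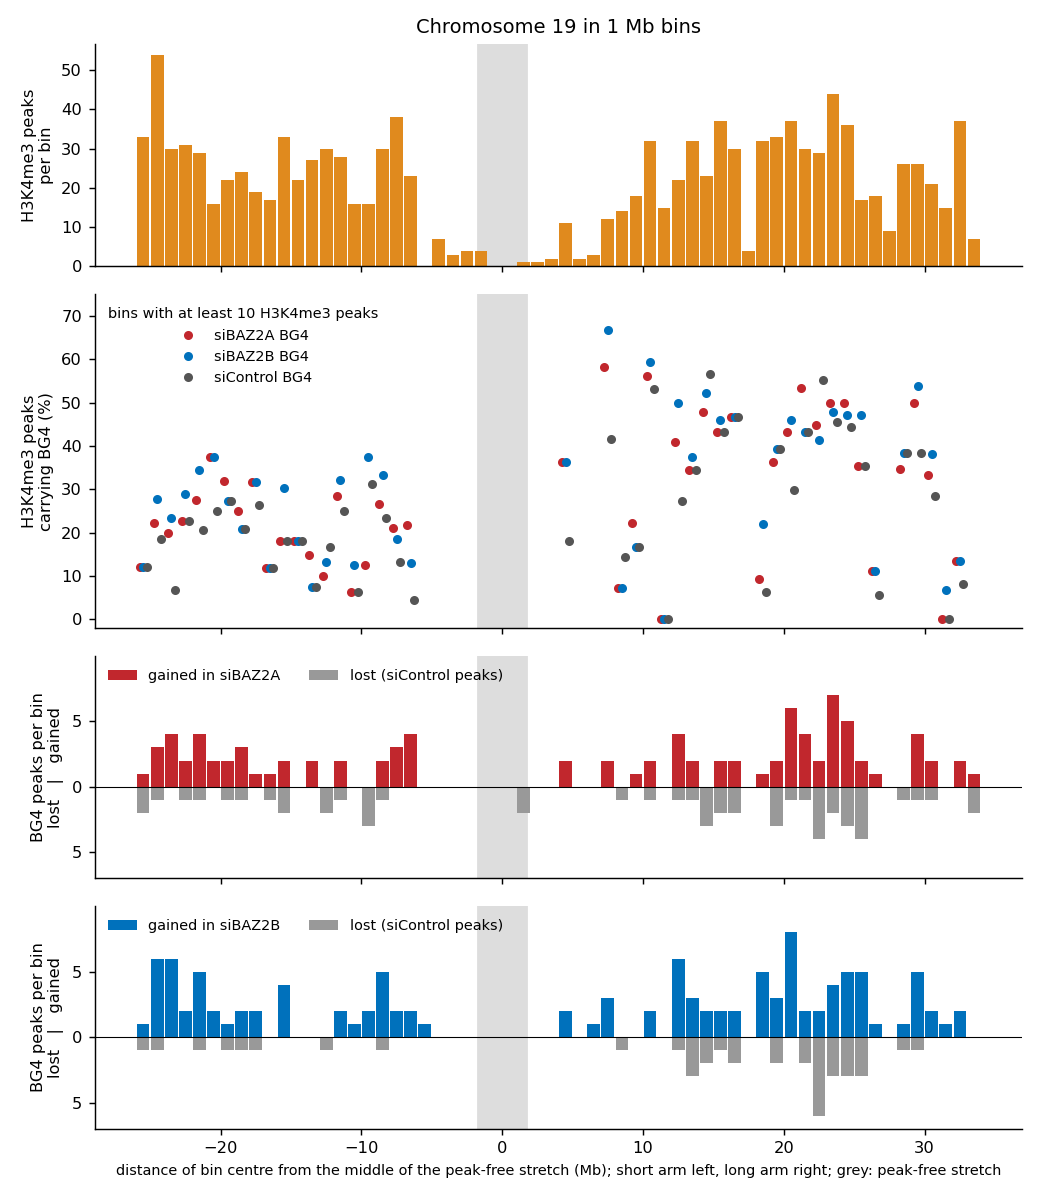
Chromosome 19 in 1 Mb bins, placed by the distance of the bin centre in Mb from the middle of the longest peak-free stretch (grey). From the top: number of H3K4me3 peaks per bin; percent of them carrying BG4 in siBAZ2A, siBAZ2B and siControl, with points of a bin drawn side by side, for bins with at least 10 H3K4me3 peaks; BG4 peaks gained (up) and siControl peaks lost (down) per bin in siBAZ2A; the same in siBAZ2B. The highest siControl share, 56.5%, lies on the long-arm side.

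The 4 lists left a stretch of 3.46 Mb empty, at chr19:24270640-27731842 (hg19), the part of the chromosome that holds the centromere. The 3 BG4 lists were empty over a longer stretch of 7.14 Mb, at chr19:20586964-27731842, in which 18 H3K4me3 peaks lay. In 8 bins with H3K4me3 peaks, 46 such peaks in all, no BG4 list had a peak. The largest of these bins were at 37 to 38 Mb, with 15 H3K4me3 peaks, at 53 to 54 Mb, with 9, and at 21 to 22 Mb, with 7. The number of such bins depends on their width: it was 23 with bins of 0.5 Mb and 2 with bins of 2 Mb.

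Splitting the chromosome at the empty stretch, a step chosen after the bins were seen, separated a G4-rich long arm from a short arm near the level of the other chromosomes. On the long arm, 245 of 676 H3K4me3 peaks carried BG4 in siBAZ2A, 36.2% (32.7 to 39.9), 258 in siBAZ2B, 38.2% (34.6 to 41.9), and 224 in siControl, 33.1% (29.7 to 36.8). On the short arm 113 of 556 did in siBAZ2A, 20.3% (17.2 to 23.9), 127 in siBAZ2B, 22.8% (19.6 to 26.5), and 94 in siControl, 16.9% (14.0 to 20.25). The long arm was higher by 15.9 points in siBAZ2A (10.9 to 20.8), by 15.3 points in siBAZ2B (10.2 to 20.3) and by 16.2 points in siControl (11.4 to 20.9). The H3K4me3 peaks of both arms were alike in width, with medians of 1063 bp on the long arm and 1076 bp on the short arm, and in fold enrichment, with medians of 7.89 and 7.50.

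Against all other chromosomes at equal H3K4me3 width, the long arm stood higher by 16.6 points in siBAZ2A, 16.4 points in siBAZ2B and 18.3 points in siControl. The short arm stood higher by 1.02, 1.29 and 2.51 points. The excess of chromosome 19 over the other chromosomes in these lists was thus mostly on its long arm. The widest quintile of H3K4me3 peaks, those of 1590 bp or more, showed it most clearly: on the long arm 98 of 143 carried BG4 in siBAZ2A, 68.5% (60.5 to 75.6), 95 in siBAZ2B, 66.4% (58.35 to 73.65), and 91 in siControl, 63.6% (55.5 to 71.1). On the short arm the same quintile had 32 of 92 in siBAZ2A, 34.8% (25.8 to 44.95), 38 in siBAZ2B, 41.3% (31.8 to 51.5), and 28 in siControl, 30.4% (21.97 to 40.46). In the narrowest quintile the arms differed little, with 12.0% on the long arm and 8.27% on the short arm in siBAZ2A, 12.0% and 9.02% in siBAZ2B, and 9.86% and 6.77% in siControl.

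**Figure D2:**
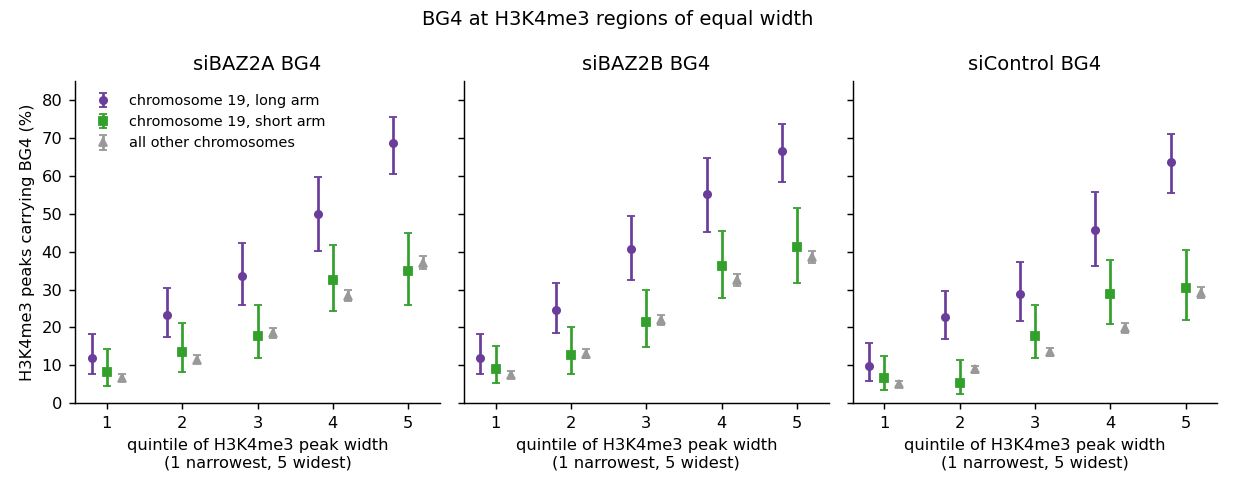
Percent of H3K4me3 peaks carrying BG4 (vertical axis) in each quintile of H3K4me3 peak width, from narrowest to widest, for the long arm of chromosome 19, its short arm and all other chromosomes, in siBAZ2A, siBAZ2B and siControl. Bars are 95% Wilson intervals. The long arm reaches 68.5%, 66.4% and 63.6% in the widest quintile, and the short arm 34.8%, 41.3% and 30.4%.

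Within the long arm the G4-rich stretch ran from 36 to 52 Mb, with borders drawn after the bins were seen. Over its 16 bins, 186 of 453 H3K4me3 peaks carried BG4 in siBAZ2A, 41.1% (36.6 to 45.65), 194 in siBAZ2B, 42.8% (38.35 to 47.4), and 175 in siControl, 38.6% (34.3 to 43.2). Between 52 and 60 Mb the shares were lower, at 25.8% in siBAZ2A (19.6 to 33.1), 28.3% in siBAZ2B (21.9 to 35.75) and 22.01% in siControl (16.3 to 29.1) of 159 H3K4me3 peaks. Between 27 and 36 Mb only 64 H3K4me3 peaks were found, and 28.1%, 29.7% and 21.9% of them carried BG4. No order of the lists can be read from these shares, since the lists differ in length over the whole genome.

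The strongest BG4 peaks of chromosome 19 lay on H3K4me3 and were held by every BG4 list. Peaks are ranked within 1 list only, by the fold enrichment deposited by the authors. In siBAZ2A the highest fold was 14.97 at chr19:42363718-42364354, followed by 14.2 at chr19:49217176-49217927 and 13.7 at chr19:3285055-3285706. In siBAZ2B the order began with 11.7 at chr19:41426784-41427501, 11.3 at chr19:3284923-3285671 and 10.9 at chr19:9929721-9930394. In siControl it began with 15.1 at chr19:46405910-46406492, 13.3 at chr19:42363718-42364332 and 13.2 at chr19:1905259-1905758. The 5 strongest peaks of each BG4 list all lay on H3K4me3 and all had a peak in both other BG4 lists. Within its whole list, the strongest chromosome 19 peak ranked 21 of 4257 in siBAZ2A, 46 of 4865 in siBAZ2B and 23 of 3332 in siControl.

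The strongest and the widest H3K4me3 regions differed in their G4 peaks. The H3K4me3 peak of highest fold, 18.1 at chr19:41945204-41945934, carried BG4 in all 3 lists. The next, 17.98 at chr19:45988596-45989204, carried it in both knockdowns and not in siControl. The following 3, at chr19:35417721-35418543, chr19:24269800-24270639 and chr19:21264849-21265623, carried none, and the second of them borders the empty centromeric stretch. Of the 5 widest H3K4me3 peaks, 4 carried BG4 in all 3 lists, led by the peak of 3534 bp at chr19:41768374-41771907. The exception, 3207 bp at chr19:50093466-50096672, lacked BG4 in siBAZ2B. Wide regions without any BG4 peak existed as well, the widest being 2793 bp at chr19:42756933-42759725 and 2756 bp at chr19:41857292-41860047, both inside the G4-rich stretch.

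On chromosome 19 each knockdown list exceeded the siControl list by less than on the other chromosomes pooled. The siBAZ2A list held 1.12 times as many chromosome 19 peaks as the siControl list, against 1.30 times on all other chromosomes, and the siBAZ2B list 1.24 times, against 1.48 times. Chromosome 17 had still smaller ratios, 1.08 in siBAZ2A and 1.19 in siBAZ2B. A knockdown peak sharing no base with a siControl peak is called gained, and a siControl peak sharing none with a knockdown peak is called lost. In siBAZ2A 94 of 377 peaks were gained, 24.9% (20.8 to 29.5), beside 39.9% of the whole list, and 53 of 336 siControl peaks were lost, 15.8% (12.3 to 20.1), beside 23.4%. In siBAZ2B 115 of 416 peaks were gained, 27.6% (23.6 to 32.1), beside 44.0%, and 39 of 336 were lost, 11.6% (8.61 to 15.5), beside 18.6%. These shares depend on the lengths of the lists. With lists of equal length 19.4% were gained and 24.7% lost in siBAZ2A, and 20.0% gained and 34.5% lost in siBAZ2B. The lost share then exceeded the gained share. In this setting 314 siBAZ2A and 275 siBAZ2B peaks were left on chromosome 19, beside 336 of siControl. Shares of the whole lists at equal length were not analysed, so no net loss can be read from these values. The smallest overlap of a shared peak was 203 bp in siBAZ2A and 131 bp in siBAZ2B, and the nearest siControl peak to a gained peak was 158 bp and 244 bp away, with 6 and 5 gained peaks within 1 kb of one. Requiring a reciprocal overlap of 50% gave 105 gained and 64 lost peaks in siBAZ2A, and 130 gained and 50 lost in siBAZ2B. The merged BG4 lists gave 498 loci on chromosome 19, of which 266 were in all 3 lists, 53.4% (49.0 to 57.75), against 36.02% (34.8 to 37.3) of the 5708 loci elsewhere.

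Gained peaks were weaker and narrower than shared ones, as lost peaks were against kept ones. In siBAZ2A the median fold was 6.21 for gained and 8.31 for shared peaks, and the median width 480 and 677 bp. In siBAZ2B the medians were 5.37 and 6.635 for fold, and 444 and 660 bp for width. Lost siControl peaks had a median fold of 6.09 in the siBAZ2A comparison and 5.76 in the siBAZ2B comparison, against 7.80 and 7.62 for kept ones. Gained peaks still lay mostly on the H3K4me3 peaks of siControl cells. An overlap was found for 88 of 94 in siBAZ2A, 93.6% (86.8 to 97.0), and 104 of 115 in siBAZ2B, 90.4% (83.7 to 94.6), against 97.5% and 96.3% of shared peaks (94.98 to 98.8 and 93.6 to 98.0). This was also common elsewhere. Merged loci in siBAZ2A alone, in both knockdowns only and in siBAZ2B alone lay on H3K4me3 in 86.6%, 93.0% and 83.4% on all other chromosomes. On chromosome 19 the same classes gave 89.4%, 97.9% and 85.3%. H3K4me3 in the knockdown cells is not among these lists.

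The smaller share of gains on chromosome 19 was also present at equal fold enrichment. From the weakest to the strongest quintile of the siBAZ2A list by fold, 50.0%, 39.3%, 30.3%, 19.7% and 4.39% of chromosome 19 peaks were gained, against 64.9%, 53.3%, 42.4%, 28.7% and 15.8% on all other chromosomes. Chromosome 19 lay lower in all 5, with differences of -14.9 to -8.98 points. From the weakest to the strongest quintile of the siBAZ2B list the gained shares on chromosome 19 were 37.0%, 51.5%, 33.8%, 14.6% and 7.45%, against 59.0%, 57.3%, 51.2%, 37.3% and 22.4% elsewhere. Here too all 5 were lower, with differences of -22.7 to -5.78 points. In the strongest quintile 5 of 114 siBAZ2A peaks and 7 of 94 siBAZ2B peaks of chromosome 19 were gained.

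**Figure D3:**
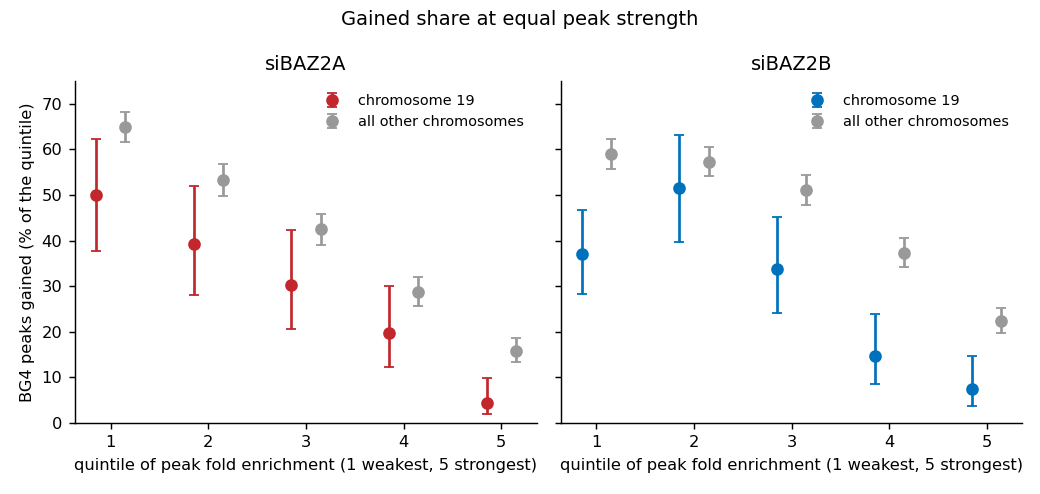
Percent of BG4 peaks gained (vertical axis) in each quintile of peak fold enrichment, from weakest to strongest, for chromosome 19 and all other chromosomes, in siBAZ2A (left) and siBAZ2B (right). Bars are 95% Wilson intervals. Chromosome 19 lies lower in all 5 quintiles of both lists, for example 4.39% against 15.8% in the strongest quintile of siBAZ2A.

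Weighted to the quintiles of the chromosome 19 peaks, the other chromosomes would give a gained share of 36.9% in siBAZ2A and 44.8% in siBAZ2B. Chromosome 19 was 12.0 points below in siBAZ2A (a difference of -12.0) and 17.2 points below in siBAZ2B (-17.2), where the unweighted differences were -16.4 and -17.8. The choice of strength measure mattered. Quintiles of the −log10 q-value in place of the fold were an alternative added after seeing the data. With them the differences were smaller, at -4.59 points in siBAZ2A (-8.69 to 0.0149) and -8.26 points in siBAZ2B (-12.3 to -3.78). These intervals cover the counting error of chromosome 19 alone. They are no test, since the gained share was used to choose the chromosome. The difference was also not particular to chromosome 19: at the same fold quintiles chromosome 17 had a gained share of 21.96% in siBAZ2A and 28.4% in siBAZ2B. The lost share of chromosome 19 was lower than that of the other chromosomes at equal quintiles of the siControl fold, by 6.12 points in the siBAZ2A comparison (-6.12) and 5.84 points in the siBAZ2B comparison (-5.84). The siBAZ2A comparison was not lower throughout: in quintile 2, 32.7% of chromosome 19 peaks were lost, against 31.2% elsewhere. In quintile 3 the lost share was only slightly lower, 19.7% against 21.1%. At the same quintiles chromosome 17 had lost shares of 17.45% in siBAZ2A and 15.1% in siBAZ2B.

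Gains were rarer on the long arm, the arm with more G4 peaks in siControl. In siBAZ2A 56 of 259 long-arm peaks were gained, 21.6% (17.04 to 27.03), and 38 of 118 short-arm peaks, 32.2% (24.45 to 41.1), a difference of -10.6 points (-20.6 to -1.13). In siBAZ2B 69 of 279 long-arm peaks were gained, 24.7% (20.0 to 30.1), and 46 of 137 short-arm peaks, 33.6% (26.2 to 41.8), a difference of -8.85 points (-18.3 to 0.276). The arms were split after the bins were seen, so these intervals are descriptions and no test. Against the other chromosomes at equal fold quintiles, the long arm differed by -15.4 points in siBAZ2A and -20.6 points in siBAZ2B, and the short arm by -4.52 points (-12.3 to 4.35) and -10.2 points (-17.6 to -1.95). The short-arm intervals here cover the counting error of that arm alone. Losses differed between the arms in opposite directions in siBAZ2A and siBAZ2B, with wide intervals. In siBAZ2A they were 15.1% on the long arm and 17.5% on the short arm (difference -2.46 points, -12.1 to 5.62), and in siBAZ2B 13.0% and 8.25% (4.72 points, -3.35 to 11.0).

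The peak numbers in the lists moved with these shares. Peak names carry running numbers with gaps, read here as the numbering of the replicate whose coordinates the authors kept, before the filter on 2 replicates. This reading was not tested, and the run numbers in the same names do not all match the labelled replicates, so what the totals below count is uncertain. On chromosome 19 the running numbers spanned 631 peaks in siBAZ2A, 615 in siBAZ2B and 628 in siControl, nearly equal numbers, of which the lists held 59.75% (55.9 to 63.5), 67.6% (63.85 to 71.2) and 53.5% (49.6 to 57.4). On all other chromosomes the lists held 51.3% in siBAZ2A, 54.05% in siBAZ2B and 37.3% in siControl. On the long arm the share held was 64.75% in siBAZ2A, 73.2% in siBAZ2B and 60.4% in siControl, and on the short arm 52.2%, 60.4% and 42.9%. Chromosome 17 was close to chromosome 19, with 55.4% in siBAZ2A, 65.3% in siBAZ2B and 50.2% in siControl. The siControl list thus held a larger share of its numbered peaks on both chromosomes than on the others pooled, and on chromosome 19 the share was higher on the long arm. What part this has in the small share of gains there was not tested. A change in G4 structures and a change in how many peaks recur between replicates cannot be told apart in these lists.

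**Figure D4:**
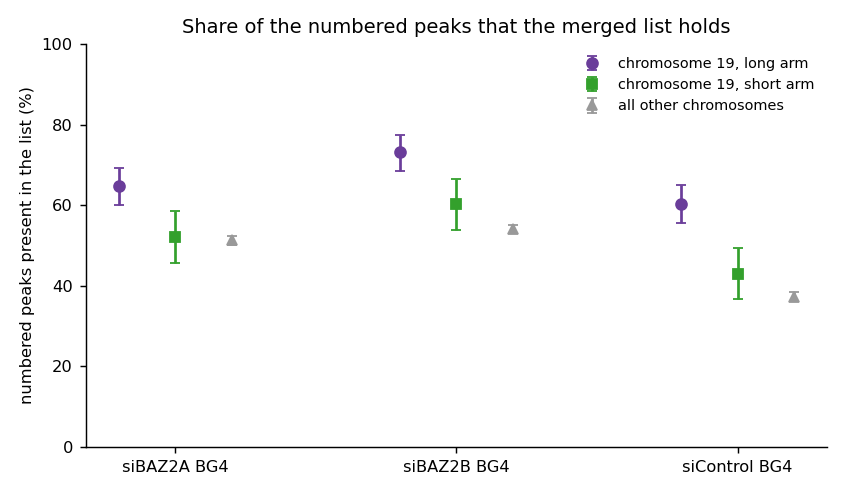
Percent of the running peak numbers, read as those of 1 replicate, that the merged list holds (vertical axis), for the long arm of chromosome 19, its short arm and all other chromosomes, in siBAZ2A, siBAZ2B and siControl. Bars are 95% Wilson intervals. In siControl the values are 60.4%, 42.9% and 37.3%.

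The strongest gained peak of chromosome 19 was the same site in both knockdowns. It lay at chr19:4246885-4247432 with a fold of 9.92 in siBAZ2A and at chr19:4247065-4247490 with a fold of 9.63 in siBAZ2B, on H3K4me3. The next in siBAZ2A were at chr19:46498161-46498808 (fold 9.11), chr19:1275472-1275922 (9.03) and chr19:18303571-18304215 (8.93). The next in siBAZ2B were at chr19:57049712-57050109 (9.21), chr19:4867752-4868167 (8.985) and chr19:52207182-52207515 (8.31). All 10 of the strongest gained peaks of each knockdown overlapped H3K4me3. The siBAZ2B peak at chr19:45988730-45989126 (fold 7.91) lies on the H3K4me3 peak of second-highest fold named above. Both comparisons use the same siControl list, so a site missing there counts as gained in both. Within its whole list, this strongest gained peak ranked 446 of 4257 in siBAZ2A and 201 of 4865 in siBAZ2B.

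The strongest peaks lost in siBAZ2A were at chr19:17337025-17337417 (siControl fold 9.49) and chr19:40614176-40614753 (8.295), both still in the siBAZ2B list. The site at chr19:40614176-40614753 was the 1 of the 10 strongest that lay outside H3K4me3. The strongest peaks lost in siBAZ2B were at chr19:8656962-8657442 (9.25), chr19:6476298-6476781 (8.69) and chr19:13001467-13002021 (8.31), all on H3K4me3 and all still in the siBAZ2A list. The siControl peak at chr19:7099298-7099629 (7.65) was missing from both knockdown lists, as were those at chr19:50706423-50707090 (7.33), chr19:40415566-40415945 (7.29) and chr19:4145566-4146019 (7.05).

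Gains were spread over much of the chromosome. At least 1 gained peak lay in 37 of the 60 bins in siBAZ2A and in 40 in siBAZ2B, and the 5 bins with most held 26 of the 94 and 31 of the 115. Ties were taken from low to high position. In siBAZ2A these bins were 49 to 50 Mb (7 of 27 peaks gained) and 46 to 47 Mb (6 of 16). Next were 50 to 51 Mb (5 of 18), 2 to 3 Mb (4 of 7) and 4 to 5 Mb (4 of 9). The gained share at 49 to 50 Mb, 25.9%, was near the 24.9% of the whole chromosome. In siBAZ2B the bins with most were 46 to 47 Mb (8 of 19) and 1 to 2 Mb (6 of 15). Then came 2 to 3 Mb (6 of 10), 38 to 39 Mb (6 of 12) and 4 to 5 Mb (5 of 10). The bin at 46 to 47 Mb had 16 BG4 peaks in siBAZ2A, 19 in siBAZ2B and 11 in siControl. Losses were most numerous at 48 to 49 Mb, where 4 of 16 siControl peaks were lost in siBAZ2A and 6 in siBAZ2B, with 2 peaks gained in each knockdown, and in siBAZ2A equally at 51 to 52 Mb, with 4 of 8 lost. Among the 32 bins with at least 20 H3K4me3 peaks, the share carrying BG4 was higher in siBAZ2A than in siControl in 20, equal in 7 and lower in 5. In siBAZ2B it was higher in 20, equal in 9 and lower in 3. No order of the lists can be read from these counts, since the lists differ in length and the counts were not repeated at equal length. Over the whole chromosome, lists of equal length gave 25.0% of H3K4me3 peaks carrying BG4 in siBAZ2A, 21.4% in siBAZ2B and 25.8% in siControl.

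Few BG4 loci of chromosome 19 lay away from H3K4me3. Of the 498 merged loci, 30 were outside H3K4me3, of which 6 were in all 3 lists, 10 in siBAZ2B alone, 5 in siBAZ2A alone and 2 in siControl alone. The classes differ in size, with 266, 68, 47 and 22 loci in this order. Of these, 97.7%, 85.3%, 89.4% and 90.9% lay on H3K4me3, against 94.7%, 83.4%, 86.6% and 71.1% on all other chromosomes. The counts of the knockdown classes thus followed their size. A cluster of 3 stood just beyond the empty centromeric stretch. Its site at chr19:27738379-27738783 was in all 3 lists, with folds of 4.93 in siBAZ2A, 3.98 in siBAZ2B and 4.19 in siControl. The sites at chr19:27733046-27733378 and chr19:27733920-27734584 were in siBAZ2B and siControl and not in siBAZ2A. Their folds were low, 3.18 and 2.56 in siBAZ2B and 3.49 and 2.71 in siControl. The values 2.56 and 2.71 were the lowest of any chromosome 19 peak in these lists. The last BG4 locus of the chromosome, at chr19:59118700-59119145, was also outside H3K4me3 and was held by siBAZ2B (fold 8.295) and siControl (6.34). The strongest locus outside H3K4me3 was at chr19:3276116-3276675, with folds of 9.23 in siBAZ2A, 6.795 in siBAZ2B and 8.68 in siControl. These sites were picked out after their values were seen.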

How the data were processed

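BG4 and H3K4me3 CUT&Tag of A549 cells gave 4 deposited peak lists, each merging 4 replicates. The submitters' processing notes name MACS2 2.1.4, Bowtie2 2.4.5, SAMtools 1.15.1, Picard and bedtools, with hg19 and dm6 as builds. Per the labels, the authors kept peaks present in at least 2 replicates, with the largest replicate's coordinates. The labels' protocols list Drosophila chromatin as a spike-in; its use for scaling is not stated there. In the deposited lists column 7 is a fold enrichment (a ratio) and column 9 of the deposited lists the −log10 of a q-value, both the authors' values for single peaks. Depth per sample is unknown here.

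Peaks were shared at 1 common base and belonged to the 1 Mb bin of their midpoint. Coordinates are hg19, 1-based. Quintiles of fold were cut on a whole list, and shares of the other chromosomes were weighted to the chromosome 19 numbers per quintile. Single shares carry 95% Wilson intervals and unweighted differences Newcombe intervals. For differences at equal quintiles, the interval is that of the chromosome 19 share alone, with the weighted share of the others taken as fixed. The method was tested on simulated lists. Alternatives were other overlaps, thresholds, list lengths, strata, comparison chromosomes and bins. The members, lists and comparisons were chosen with earlier results of these data known.

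Named sites were, on chromosome 19, those of highest fold in each list (5), among gained and among lost peaks (10 each) and among loci gained in both knockdowns (10), the widest H3K4me3 peaks with and without BG4 (5 each), and the extreme bins (5 each); the text gives the first of each. The minimum for ranking bins by share was 20 H3K4me3 peaks. No annotation of hg19 was used, so sites carry no gene names. RefSeq promoters of GRCh38.p14 served for the motif search alone. Python 3.11.15, pandas 2.3.3, NumPy 2.4.6 and matplotlib 3.10.9 were used.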

Additional observations from a re-analysis of the deposited data

How the results depend on the processing

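No paired analysis was possible because the 4 replicates of a group are merged into 1 list, which also prevents leaving out a replicate. Over 16 results and 77 alternatives, 49 values stayed within the main value's 95% interval (or within 1.5 times a count). The difference in gained share from the other chromosomes stayed below 0 in 13 of 14 alternatives in siBAZ2A and in 14 of 14 in siBAZ2B. These alternatives reuse the same lists, and the chromosome was chosen for its low gained share, so the counts are no independent support. Against chromosome 17 alone it turned to 2.98 points in siBAZ2A and was -0.778 points in siBAZ2B. With quintiles of −log10 q it was -4.59 and -8.26 points, and on the short arm alone -4.52 and -10.2 points; these settings, and the arms below, were chosen after seeing the data. With BG4 lists of equal length, 19.4% of siBAZ2A and 20.0% of siBAZ2B peaks were gained and 24.7% and 34.5% of siControl peaks lost, the knockdown lists being shortened in this setting. With the stronger 50% of BG4 peaks, 30.3% and 32.2% were gained and 22.3% lost in siBAZ2B. H3K4me3 peaks carrying BG4 fell to 25.0% in siBAZ2A and 21.4% in siBAZ2B with equal lists, and to 26.2% and 26.9% at a −log10 q of at least 5, since fewer BG4 peaks remain. They were 36.2%, 38.2% and 33.1% on the long arm and 20.3%, 22.8% and 16.9% on the short arm in siBAZ2A, siBAZ2B and siControl. Against the stronger 50% of H3K4me3 peaks, 42.2%, 42.5% and 43.2% of BG4 peaks lay on H3K4me3, fewer regions being left to overlap. Bins without BG4 numbered 23 at 0.5 Mb and 2 at 2 Mb. Depth is unknown here, so sites missing from a list may be undetected.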
